A study of Mus musculus with 11 samples.

Results

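The table of fecal miRNA counts held 616 rows, and 72 of them had the prefix novel_ and a number where the other 544 had a miRNA name. These 72 numbered rows were chosen by that prefix alone, with no use of their values. The counts came from small RNA sequencing of mouse feces (strain C57BL/6) across 3 phases of a colitis set off by dextran sulfate sodium (DSS) in the drinking water, an agent that damages the colonic epithelium. There were 4 libraries from before DSS, 3 from day 5 of 2.5% DSS (the acute phase) and 4 from day 12, after 5 days of DSS and 7 days without it (recovery). No library came from mice left without DSS on day 5 or day 12, so phase and sampling day cannot be told apart. Nothing in the labels tells whether the libraries within a phase are from different mice, so that p-values measure only the spread between these libraries, part of which may be technical.

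A miRNA is a short RNA cut from a hairpin in a longer transcript, and it finds its target mRNAs mainly through the seed, the bases just after its first one. Small RNA pipelines commonly number the reads that can fold into such a hairpin but match no catalogued miRNA. Such predicted rows can hold true miRNAs as well as pieces of other RNAs, and feces carry RNA from shed epithelial cells, from blood cells that reach the gut lumen, from food and from microbes. The table gives each numbered row a name and counts, and the sequences, hairpins and genome positions of these rows were not analysed here, so no role is given for any of them.

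For 2 numbered rows, novel_249 and novel_285, the 3 named rows with the most similar levels over the 11 libraries are given, and the sequences below belong to the 4 of these 6 named rows that matched an entry of the RefSeq miRNA table. They are mature sequences on GRCm38.p6, with the seed (bases 2 to 8) in capitals. The closest rows to novel_249 were miR-375-3p (Pearson r = 0.805), a miRNA of enteroendocrine and islet cells, miR-147-3p (r = 0.737) and miR-15b-5p (r = 0.593). The closest to novel_285 were miR-6538 (r = 0.770), miR-5126 (r = 0.701) and miR-6240 (r = 0.647). These correlations of log2(CPM + 1) describe 11 libraries that share their totals and phases, and no test was made of them.
mmu-miR-15b-5p (chr3:69009775-69009796, plus strand): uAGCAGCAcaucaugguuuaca
mmu-miR-6538 (chr12:26414970-26414988, minus strand): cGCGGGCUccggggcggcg
mmu-miR-5126 (chr1:84695890-84695911, plus strand): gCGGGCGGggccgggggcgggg
mmu-miR-6240 (chr5:114851973-114851998, plus strand): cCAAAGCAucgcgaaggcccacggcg
The G and C content was 94.7% in miR-6538, 100% in miR-5126 and 69.2% in miR-6240, the rows closest to novel_285, while the median of the 1738 mature sequences in that RefSeq table was 52.2%. It was 40.9% in miR-15b-5p.

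The total count ran from 13240 to 30418 per library before DSS, from 11749 to 17872 on day 5 and from 18863 to 40835 on day 12. These are totals of the miRNA table and not of the sequencing run. Levels are given in CPM, the count scaled to a library total of 1000000, and 3 counts, the limit that a count of 0 allows, correspond to between 73.5 and 255 CPM in a single library. Most numbered rows lay near or below that limit. Intervals and limits cover counting error alone, as no molecular identifiers were read. In its group, before-DSS library 2 had the lowest median correlation with the other libraries (0.825, the others 0.930 to 0.959), and so had recovery library 4 (0.683, the others 0.782 to 0.841).

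The numbered rows took a larger share of the miRNA counts on day 5 and on day 12 than before DSS. Together they held 1918 of 246847 counts, or 0.777%. Before-DSS libraries 1 to 4 gave them 0.289%, 0.332%, 0.355% and 0.327% of their counts, which is a mean of 0.326% ± 0.0274 (SD, n = 4). Day 5 libraries 1, 3 and 4 gave them 1.12%, 0.867% and 4.16%, a mean of 2.05% ± 1.83 (SD, n = 3). Recovery libraries 1 to 4 gave 0.683%, 0.843%, 0.590% and 0.853%, a mean of 0.742% ± 0.128 (SD, n = 4). The groups did not overlap in any of the 3 pairs of phases, and the spread was narrow before DSS and wide on day 5. No test was made of this sum, because it is a score over the members.

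**Figure D1:**
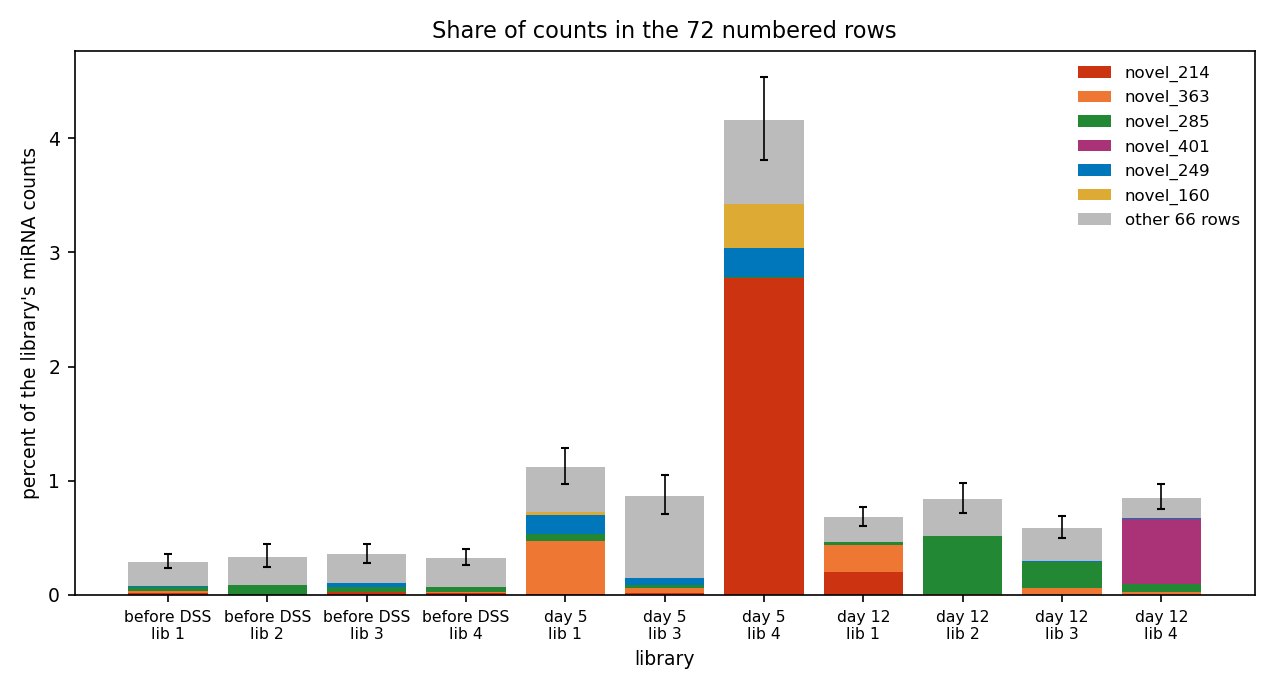
Percent of each library's miRNA counts that fell in the 72 numbered rows (vertical axis) for the 11 libraries by phase (horizontal axis), with 6 rows in colour and the other 66 in grey. Error bars are exact 95% binomial intervals of the whole bar. Day 5 library 4 stands at 4.16%, of which novel_214 makes up 2.77 percentage points.

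Apart from day 5 library 3, few rows made up the large shares, and they were not the same rows in each library. In day 5 library 4, novel_214 alone held 326 of 489 numbered counts, which was 2.77% of the library (exact 95% interval 2.49 to 3.09) and the ninth largest count of any row there. In day 5 library 1 the leading numbered row was novel_363 with 83 counts. In day 5 library 3 novel_240 and novel_280 led with 17 counts each. That was 15.7% of the 108 numbered counts of library 3 for either row, and 27 numbered rows had a count there. In recovery library 1 the leading row was novel_363 with 96 counts, in recovery libraries 2 and 3 novel_285 with 96 and 57, and in recovery library 4 novel_401 with 158. No numbered row had more than 14 counts in a before-DSS library. Without novel_214 the mean share was 1.12% on day 5 and 0.312% before DSS, and without day 5 library 4 it was 0.996% on day 5. The day 5 and day 12 groups overlapped once novel_214 was left out, with means of 0.692% on day 12 and 1.12% on day 5. Without the rows counted in a single library, day 12 and before DSS overlapped too, with means of 0.590% and 0.321%.

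Marker miRNAs of blood cells moved over the same phases. The 6 leukocyte rows (miR-155-5p, miR-150-5p and the pairs of arms of miR-142a and miR-223) summed to 0.00486% to 0.0215% of the counts before DSS, to 0.0964% to 0.247% on day 5 and to 0.610% to 0.95% on day 12. Of these 6, miR-155-5p, miR-142a-3p and miR-223-5p were at 0 in every before-DSS library, and none was at 0 throughout a later phase. The 2 red blood cell rows in the table, miR-451a and miR-486a-5p, summed to 0.696% to 1.66% before DSS, 2.19% to 3.77% on day 5 and 0.409% to 2.46% on day 12. The 7 rows of intestinal epithelium overlapped between all phases (12.2% to 21.9% before DSS, 5.89% to 18.1% on day 5, 11.4% to 20.4% on day 12), and so did the 2 neuronal rows and the 2 of smooth muscle and stroma. miR-122-5p of liver stood at 0.141% to 0.306% before DSS, 0.0504% to 0.119% on day 5 and 0.0171% to 0.133% on day 12. In bulk fecal RNA, fewer cells of a type and less RNA per cell cannot be told apart, and the part of these cells in the counts of the numbered rows was not tested.

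More numbered rows were detected on day 5 once the libraries were put on equal depth. Numbered rows with at least 1 count came to 28, 14, 25 and 29 in before-DSS libraries 1 to 4, to 27, 27 and 34 in day 5 libraries 1, 3 and 4, and to 38, 18, 30 and 19 in recovery libraries 1 to 4. That number grows with the library total, and the day 5 libraries were the shallowest of the series apart from before-DSS library 2. At 11749 counts per library, the smallest total, the expected number was 13.2 to 19.3 before DSS, 23.3 to 34.0 on day 5 and 14.3 to 20.2 on day 12. The mean was 27.9 ± 5.49 on day 5 (SD, n = 3) and 17.4 ± 2.86 before DSS (SD, n = 4), and it was 17.3 ± 3.35 on day 12 (SD, n = 4). All 3 day 5 libraries lay above the other 8. As deposited, with no thinning, the day 5 range overlapped with both others. Rows with a miRNA name overlapped between all phases at the same depth, with 224.7 to 263.6 before DSS, 249.7 to 268.6 on day 5 and 207.4 to 275.3 on day 12. Before-DSS library 2 had the fewest numbered rows of its group at this depth (13.2) and the most named rows (263.6).

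**Figure D2:**
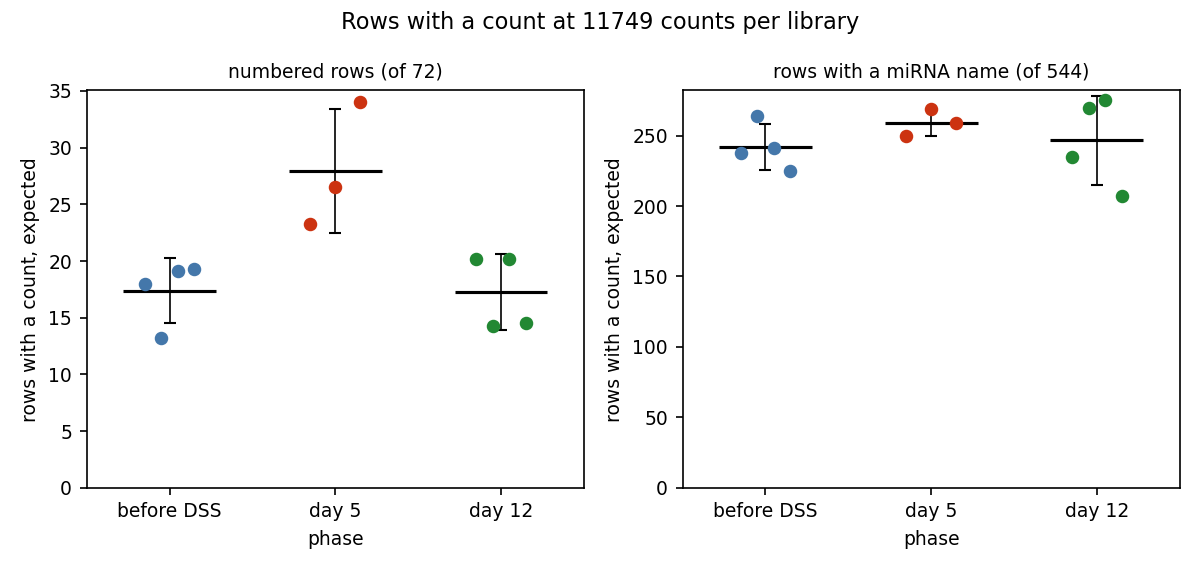
Expected number of rows with a count when every library is thinned to 11749 counts (vertical axis), for numbered rows (left) and rows with a miRNA name (right) by phase, with each library as a point and the mean and SD in black. Numbered rows lie at 23.3 or more in the day 5 libraries and at 20.2 or less in the others, while the named rows of the 3 phases overlap.

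Numbered rows were spread over few libraries. Only novel_285 had a count in all 11 libraries, 1.39% of the numbered rows, against 136 named rows (25.0%). Most numbered rows, 47 of 72, were counted in at most 4 libraries. Those in 1, 2, 3 and 4 libraries were 15.3%, 13.9%, 20.8% and 15.3% of numbered rows, and 24.1%, 9.56%, 7.35% and 5.15% of named rows. By phase, 29 rows (40.3%, named 54.4%) had counts in all 3 phases and 11 (15.3%, named 4.78%) on day 5 and day 12 only. Before DSS and on day 12 only there were 9 (12.5%, named 9.38%), and before DSS and on day 5 only 5 (6.94%, named 3.12%). Another 8 had counts on day 5 only, 6 on day 12 only and 4 (5.56%, named 8.64%) before DSS only. The 8 rows counted on day 5 only were 11.1% of the numbered rows and held 92 counts, while 22 named rows (4.04%) were counted on day 5 only and held 25. The 6 rows counted on day 12 only were 8.33% of the numbered rows, against 85 named rows (15.6%). Among rows with a summed count of 10 to 49, the 22 numbered rows had counts in a median of 5 libraries and the 94 named rows in a median of 8. In that band the highest library held a median of 43.8% of a numbered row's summed CPM and 27.0% of a named row's. Of the 72 numbered rows, 31 (43.1%) had over 50% of their counts in 1 library, as did 157 named rows (28.9%).

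**Figure D3:**
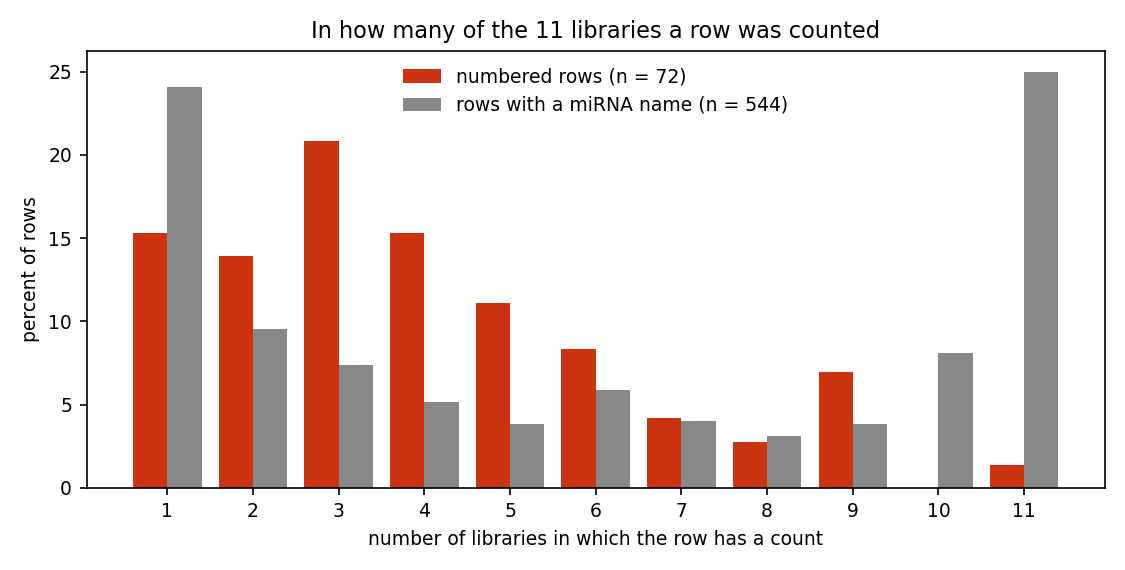
Percent of rows (vertical axis) by the number of libraries in which the row has a count (horizontal axis), for the 72 numbered rows in red and the 544 rows with a miRNA name in grey. Named rows pile up at 1 and at 11 libraries, and numbered rows lie mostly at 1 to 6.

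Set apart were 11 numbered rows (15.3%) with counts in exactly 1 library, against 131 named rows (24.1%). Of the named ones 112 had a single count and the largest had 3. Among the numbered ones 5 had a single count, 4 had 2 counts and 2 had more. novel_401 had 158 counts in recovery library 4 and 0 in the other 10 libraries, and there it was 0.566% of the library (exact 95% interval 0.482 to 0.662) and the row with the 28th largest count. novel_144 had 8 counts, also in recovery library 4 alone. The 4 with 2 counts were novel_234 in recovery library 1, novel_334 in before-DSS library 1, novel_371 in before-DSS library 4 and novel_407 in day 5 library 1. Recovery library 4 was the library least like its group, and neither novel_401 nor novel_144 had a count without it. A row counted in 1 library has no replicate, and no difference between phases is drawn from these 11 rows.

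**Figure D4:**
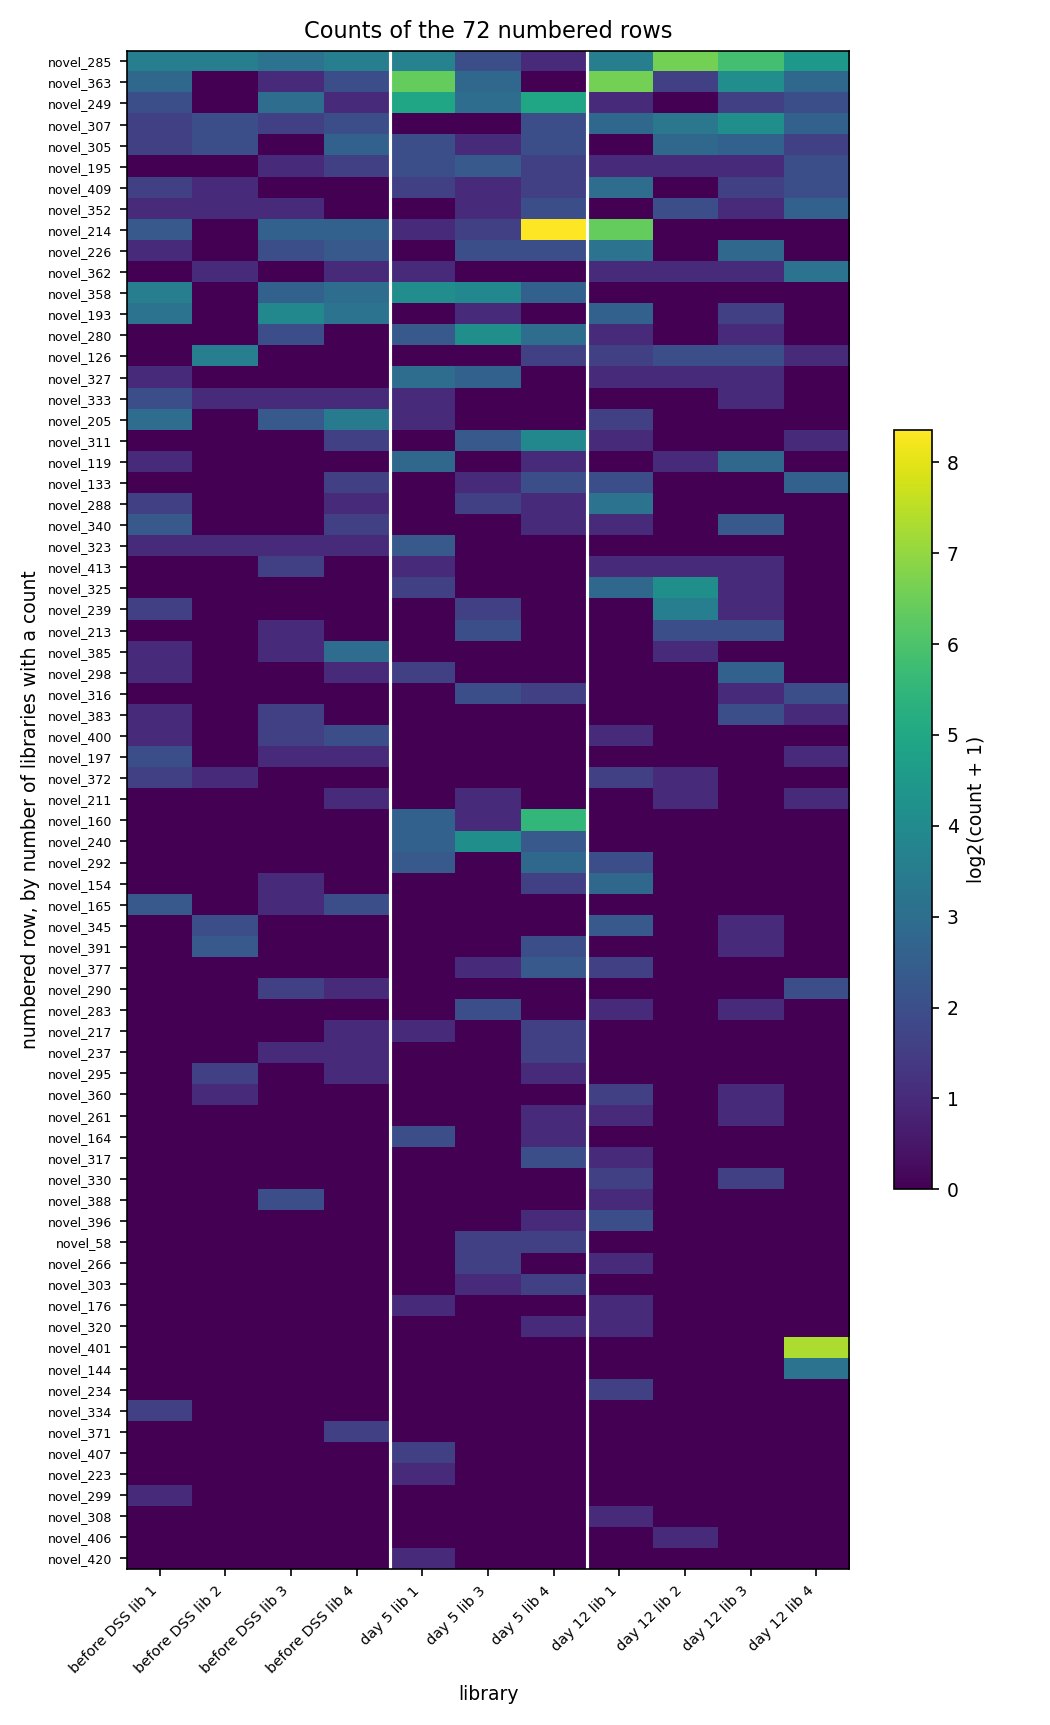
Counts of the 72 numbered rows (vertical axis) in the 11 libraries by phase (horizontal axis) as log2(count + 1), with rows ordered by the number of libraries in which they have a count and white lines between the phases. novel_285 at the top has counts in every library, and the bright cell near the bottom is novel_401 with 158 counts in recovery library 4.

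Only 3 numbered rows (4.17%) passed edgeR's default filter on low counts, novel_249, novel_285 and novel_363, and 134 named rows (24.6%) did. The other 69 numbered rows were not tested. The filter asked for at least 486 CPM (10 counts at the median total of 20580) in at least 3 libraries. novel_249 met it through the 3 day 5 libraries alone, and novel_363 through 1 day 5 and 2 recovery libraries. novel_285 met it in 1 before-DSS, 1 day 5 and 3 recovery libraries. The first 2 of these rows thus entered the test only because they were high after DSS. novel_285 would not have entered it without its recovery libraries, where it was highest. The counts of numbered rows that passed describe these rows and support nothing about the 72. In the comparison of day 5 with before DSS, 0 of the 3 passed edgeR's quasi-likelihood test at a Benjamini-Hochberg adjusted p of 0.05, where the background was 0% of 137 rows. At an unadjusted p under 0.05 there were 2, both higher, where 13.1% of all rows tested were higher and 11.7% lower. DESeq2 called 1 (novel_249), where it called 3.70% of 135 rows, and limma-voom called 0 of 137 rows. In the comparison of day 12 with before DSS 0 of the 3 passed (background 6.57%), and 2 were higher at an unadjusted p under 0.05, where 12.4% of all rows were higher and 4.38% lower. DESeq2 and limma-voom called 0 of the 3, and 8.89% and 5.84% of all rows they tested. In the comparison of day 12 with day 5, 1 of the 3 passed (background 3.65%, and 0.73% for lower rows), and it was the only lower row called. This was novel_249, whose entry to the test depended on the 3 day 5 libraries. With before-DSS library 2 and recovery library 4 left out together, a choice made after seeing the data, the counts of numbered calls were again 0, 0 and 1, and the 1 was novel_249 (log2 fold change -4.99, edgeR adjusted p = 0.00801). The comparisons share libraries, so that a high value on day 5 enters both those that use it.

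The row that was called, novel_249, was high on day 5. It had 3, 0, 7 and 1 counts in before-DSS libraries 1 to 4. Day 5 libraries 1, 3 and 4 held 29, 7 and 30, and recovery libraries 1 to 4 held 1, 0, 2 and 3. Each day 5 library, at 1623, 562 and 2553 CPM, lay above every other library, of which the highest was before-DSS library 3 at 340 CPM. Its level was 53.0 ± 49.4 CPM on day 12 (SD, n = 4) and 1579 ± 996 CPM on day 5 (SD, n = 3), a log2 fold change of -4.36 ± 0.90 (SE, edgeR adjusted p = 0.0240). This p does not allow for the row having passed the low-count filter through its day 5 libraries alone. Leaving out each library gave log2 fold changes from -5.02 (without recovery library 4) to -3.95. The call was lost without day 5 library 1 (edgeR adjusted p = 0.0628), day 5 library 4 (0.0644), recovery library 2 (0.0585) or recovery library 3 (0.0729). Over all 21 alternatives that adjusted p ran from 2.47e-06 to 0.0729. Against before DSS (119 ± 153 CPM, SD, n = 4) the log2 fold change on day 5 was 3.27 ± 0.84 (SE, edgeR adjusted p = 0.0983). Leaving out each library gave 2.85 to 4.28, the highest without before-DSS library 3. DESeq2 did call that difference (adjusted p = 0.0106), and the adjusted p ran from 0.000738 to 0.263 over the alternatives. Between day 12 and before DSS its log2 fold change was -1.10 ± 0.99 (SE, edgeR adjusted p = 0.628), on 6 and 11 counts, and that difference was not detectable at this depth. Of the named rows closest to it, miR-147-3p stood at 1108 ± 386 CPM before DSS (SD, n = 4), 4042 ± 700 on day 5 (SD, n = 3) and 1599 ± 1014 on day 12 (SD, n = 4), and miR-375-3p at 2225 ± 605, 3230 ± 433 and 1821 ± 306 CPM.

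The most widely detected row, novel_285, had its highest values in recovery. It had 11, 11, 8 and 11 counts in before-DSS libraries 1 to 4, 12, 3 and 1 in day 5 libraries 1, 3 and 4, and 11, 96, 57 and 21 in recovery libraries 1 to 4. Recovery libraries 2 and 3, at 5089 and 2273 CPM, lay above every other library, while recovery library 1, at 269 CPM, lay below all 4 before-DSS libraries, so the groups overlapped. The level was 2096 ± 2170 CPM on day 12 (SD, n = 4) and 494 ± 225 CPM before DSS (SD, n = 4), a log2 fold change of 1.89 ± 0.70 (SE, edgeR adjusted p = 0.162). It passed without recovery library 1 (2.25, edgeR adjusted p = 0.0342) and was 1.21 without recovery library 2, with adjusted p-values of 0.0342 to 0.378 over the alternatives. Against day 5 (332 ± 304 CPM, SD, n = 3) the log2 fold change on day 12 was 2.61 ± 0.83 (SE, edgeR adjusted p = 0.111), with an adjusted p of 0.0193 by DESeq2, of 0.0327 by edgeR without recovery library 1 and of 0.00648 to 0.427 over the alternatives. Between day 5 and before DSS it was -0.72 ± 0.84 (SE, edgeR adjusted p = 0.676). These p-values do not allow for the row having passed the low-count filter only with its recovery libraries. Without day 5 library 1 the value was 3.83 for day 12 against day 5 and -1.94 for day 5 against before DSS. The closest named row, miR-6538, stood at 7335 ± 12336 CPM before DSS (SD, n = 4), 2508 ± 560 on day 5 (SD, n = 3) and 14390 ± 12106 on day 12 (SD, n = 4).

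novel_363 was led by 1 library in each later phase. There were 6, 0, 1 and 3 counts in before-DSS libraries 1 to 4. Day 5 libraries 1, 3 and 4 held 83, 6 and 0, and recovery libraries 1 to 4 held 96, 2, 16 and 6. The 2 libraries with the number 1 after DSS, at 4644 CPM on day 5 and 2351 CPM on day 12, stood above the rest, of which the highest was 638 CPM, and all groups overlapped. Its level was 1709 ± 2554 CPM on day 5 (SD, n = 3) and 88.4 ± 84.9 CPM before DSS (SD, n = 4), a log2 fold change of 3.71 ± 1.43 (SE, edgeR adjusted p = 0.166), which was 0.67 without day 5 library 1. On day 12 it was 828 ± 1041 CPM (SD, n = 4), and against before DSS the log2 fold change was 3.06 ± 1.37 (SE, edgeR adjusted p = 0.267). That value was 1.37 without recovery library 1, and with the library number as a block it was 2.92 and passed (edgeR adjusted p = 0.0426, and 5.04e-05 to 0.574 over the alternatives). Between day 12 and day 5 it was -0.65 ± 1.20 (SE, edgeR adjusted p = 0.764), and 2.39 without day 5 library 1. These p-values do not allow for the row having passed the low-count filter through day 5 and recovery libraries alone. The biological coefficient of variation that edgeR gave novel_363 was 1.18, the highest of the 137 rows tested, while that of novel_285 was 0.657, that of novel_249 was 0.643 and the median of the tested rows was 0.430.

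**Figure D5:**
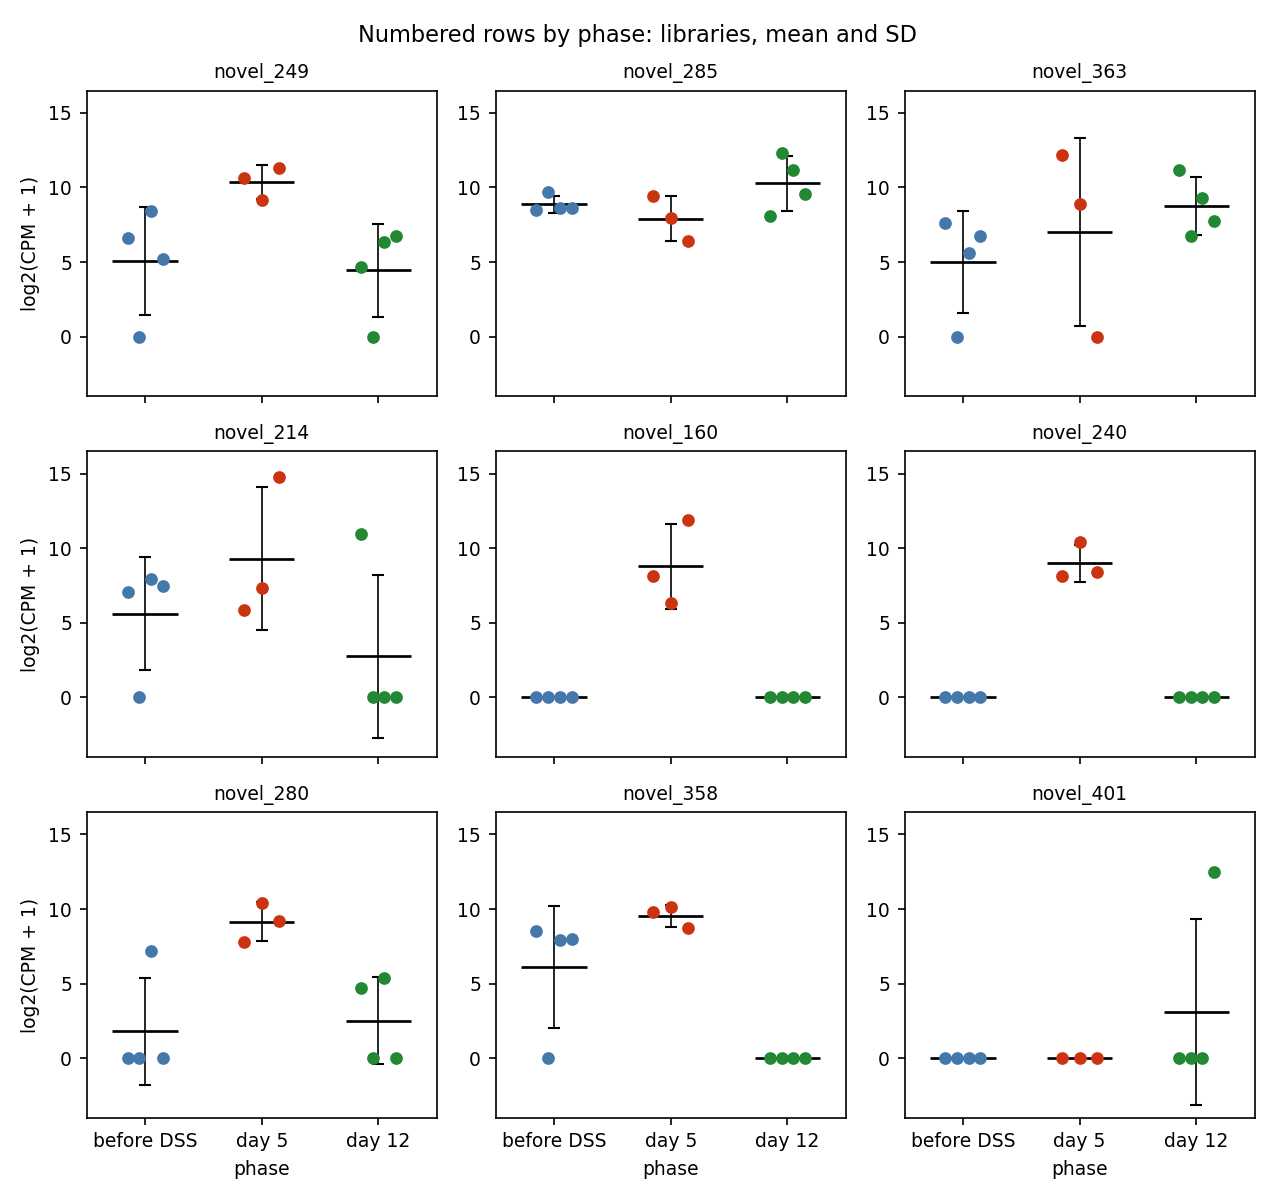
Level of 9 numbered rows as log2(CPM + 1) (vertical axis) before DSS, on day 5 and on day 12 (horizontal axis), with each library as a point and the mean and SD in black. All 3 day 5 libraries lie above the other 8 for novel_249, novel_160, novel_240, novel_280 and novel_358, and novel_214 and novel_401 are set by 1 or 2 libraries.

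Rows whose libraries did not overlap between phases were mostly rows that were high on day 5. By CPM, 7 of 72 numbered rows (9.72%) had every day 5 library above every before-DSS library, where the background was 5.36% of all 616 rows, and 0 were below (background 1.79%). Of the 72, 6 (8.33%) had every recovery library below every day 5 library (background 4.22%), and 0 were above (background 1.79%). Between day 12 and before DSS, 0 were higher (background 2.44%) and 1 was lower (background 1.14%). Pooled over libraries, 45 of the 66 numbered rows with a count in either phase had a higher CPM on day 5 than before DSS (68.2%), against 267 of 459 named rows (58.2%). On day 12 against before DSS it was 40 of 64 numbered rows (62.5%) and 273 of 522 named rows (52.3%). On day 12 against day 5 it was 26 of 68 numbered rows (38.2%) and 236 of 497 named rows (47.5%). Depth enters these shares, as the groups held 92108 counts before DSS, 42075 on day 5 and 112664 on day 12. At equal low counts a row is thus higher on day 5, as was novel_211 with 1 count in both phases (23.8 against 10.9 CPM before DSS). A row counted in only 1 of the phases has its direction fixed. Numbered and named rows were not matched by count, and no conclusion is drawn from these shares. The 2 comparisons with day 5 share its 3 libraries. Full separation also arises more easily by chance with 3 libraries against 4 than with 4 against 4, as in day 12 against before DSS.

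Besides novel_249, the rows with all day 5 libraries above both other phases were novel_160, novel_240, novel_280, novel_358 and novel_195. Apart from novel_160 and novel_358, these were singled out after their values were seen, as were novel_409, novel_323, novel_311, novel_205 and novel_325 below. None of the 5 was tested in the main fit. novel_160 had 5, 1 and 45 counts in day 5 libraries 1, 3 and 4 and 0 in the other 8 libraries. Against a floor of 3 counts over the before-DSS group it was at least 37.2-fold higher on day 5, 6.07-fold without day 5 library 4, which held most of its counts, and 58.4-fold without day 5 library 1. On day 12 it was at least 45.5-fold lower than on day 5, and 7.43-fold without day 5 library 4. novel_240 had 5, 17 and 4 counts in the same libraries and 0 in the other 8, at least 19.0-fold higher on day 5 than the before-DSS floor, and 9.33-fold without day 5 library 3. On day 12 it was at least 23.2-fold lower than on day 5, and 11.4-fold without that library. These folds take the count of day 5 as observed and leave out its counting error.

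novel_280 had 4, 17 and 7 counts in day 5 libraries 1, 3 and 4, against 0, 0, 3 and 0 in before-DSS libraries 1 to 4, a ratio of pooled CPM of 20.4 (exact 95% interval 6.31 to 105), and 11.4 without day 5 library 3. On day 12 it had 1, 0, 1 and 0 counts in recovery libraries 1 to 4, a ratio to day 5 of 0.0267 (exact 95% interval 0.00308 to 0.106), which was 0.0478 without day 5 library 3 and 0.0172 without recovery library 3. Its 3 before-DSS counts lay in library 3 alone, and all 3 day 5 libraries exceeded it. novel_195 was lower throughout, with 3, 4 and 2 counts on day 5, against 0, 0, 1 and 2 before DSS. The ratio was 6.57 (exact 95% interval 1.64 to 37.7), with 4.4 without before-DSS library 1 and 13.7 without before-DSS library 4. On day 12 it had 1, 1, 1 and 3 counts. The seventh row higher on day 5 than before DSS, novel_409, had 2, 1 and 2 counts on day 5, against 2, 1, 0 and 0 before DSS, and these counts were too few to show a difference (ratio 3.65, exact 95% interval 0.710 to 23.5).

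novel_358 was present before DSS and on day 5 and had no count in recovery. It had 11, 0, 5 and 7 counts in before-DSS libraries 1 to 4, 16, 14 and 5 in day 5 libraries 1, 3 and 4, and 0 in all 4 recovery libraries, which held 112664 counts in all. The ratio of pooled CPM between day 5 and before DSS was 3.33 (exact 95% interval 1.91 to 5.91). On day 12 it was at least 31.2-fold lower than on day 5 and at least 9.38-fold lower than before DSS, against a floor of 3 counts over the recovery group. Leaving out single libraries gave at least 19.9-fold and at least 5.98-fold, both without recovery library 1, the deepest. The only row with every recovery library below every before-DSS library, novel_323, had 1 count in each before-DSS library, 4, 0 and 0 on day 5 and 0 on day 12, which is too few counts for a statement.

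novel_214, the row with the most counts of the 72 (425), was set by 2 libraries. It had 4, 0, 5 and 5 counts in before-DSS libraries 1 to 4, 1, 2 and 326 in day 5 libraries 1, 3 and 4, and 82, 0, 0 and 0 in recovery libraries 1 to 4. Day 5 libraries 1 and 3, at 56.0 and 161 CPM, lay within the before-DSS range of 0 to 243 CPM, while day 5 library 4 stood at 27747 CPM. Without day 5 library 4 the ratio of pooled CPM between day 5 and before DSS was 0.651, where with it the ratio was 51.4. The row did not pass the filter on low counts, which asks for a minimum in at least as many libraries as the smallest group has.

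The other rows named by summed count were high in another phase. novel_307 had 6, 9, 17 and 5 counts in recovery libraries 1 to 4, against 2, 3, 2 and 3 in before-DSS libraries 1 to 4, a ratio of pooled CPM of 3.02 (exact 95% interval 1.47 to 6.82). On day 5 it had 0, 0 and 3 counts, and day 12 against day 5 gave a ratio of 4.61 (exact 95% interval 1.46 to 23.3), and 2.65 without day 5 library 1. In CPM recovery libraries 2 and 3 lay above all the others, and libraries 1 and 4 lay within the before-DSS range. novel_193 had 0, 1 and 0 counts on day 5, against 8, 0, 14 and 8 before DSS, a ratio of 0.0730 (exact 95% interval 0.00179 to 0.439), and at most 0.311 without day 5 library 3, which held the 1 count. It had 5, 0, 2 and 0 counts on day 12, a ratio to before DSS of 0.191 (exact 95% interval 0.0707 to 0.443), and 0.0855 without recovery library 1. Its absence from before-DSS library 2 made the groups overlap in both comparisons. The same library also had 0 counts of novel_358, novel_214 and novel_249, which the other 3 libraries of its group held.

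A few more rows of 20 or more counts lay mostly in 1 phase. novel_205 had 7, 0, 4 and 10 counts in before-DSS libraries 1 to 4, 1, 0 and 0 in day 5 libraries 1, 3 and 4, and 2, 0, 0 and 0 in recovery libraries 1 to 4. The ratio of pooled CPM was 0.0779 for day 12 over before DSS (exact 95% interval 0.00885 to 0.319), at most 0.183 without recovery library 1, which held both counts. novel_311 had 0, 4 and 14 counts on day 5, against 0, 0, 0 and 2 before DSS, and 1, 0, 0 and 1 on day 12. Its pooled ratio of 19.7 for day 5 over before DSS (exact 95% interval 4.72 to 175) was 6.07 without day 5 library 4, at least 9.16 without before-DSS library 4 and 34.3 without day 5 library 1. novel_325 had 0 counts in all before-DSS libraries, 2, 0 and 0 on day 5 and 6, 17, 1 and 0 on day 12, so that 17 of its 26 counts came from recovery library 2. In each of the 3 rows a single library held at least 10 counts and a library of the phase with the most counts was at 0, and the phases overlapped in CPM.

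Above a summed count of 2, every numbered row differed from all other rows in at least 1 library. The numbered rows with identical counts to others were 9 rows of 1 or 2 counts, among them novel_223 and novel_420 with 1 count each in day 5 library 1.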

How the data were processed

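Per the labels' protocols, RNA from feces homogenized in saline was made into TruSeq small RNA libraries, sequenced on a HiSeq instrument and cleaned with ACGT101-miR, which took out adapter dimers, junk, repeats, reads of low complexity and known noncoding RNA of other classes (ribosomal, transfer, nuclear, nucleolar). Not given in the sources used here are the aligner, genome build, miRNA release and the way the numbered rows were predicted. The authors deposited raw read counts per row. The table's other columns, among them scaled values, stayed unused, and CPM was computed here from the counts. Columns were assigned by name. Day 12 columns match sample titles, while day 5 columns (numbers 1, 3 and 4) and before-DSS columns (another day name) were assigned to their group only, and libraries are called by the column's number.

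All 616 rows entered edgeR 4.0.16 (TMM factors, quasi-likelihood test, default low-count filter keeping 137 rows, 1 model of group over the 11 libraries, Benjamini-Hochberg threshold 0.05) in R 4.3.3. The fit was tested on simulated data with 1 spread for all rows. In the real data the biological coefficient of variation was 1.18 for novel_363 and 0.430 at the median, so the simulation does not cover rows led by 1 library. Standard errors come from the F statistic. Rows at 0 in a group were set against 3 counts over that group, and ratios of pooled CPM have exact conditional 95% intervals (scipy 1.17.1). Thinning used the hypergeometric expectation. DESeq2 1.42.0 and limma-voom (limma 3.58.1) were alternatives. The members, lists and tests were chosen with earlier results of these data known. Named were the rows tested, the 5 largest untested rows counted in 2 or more libraries, the 5 largest in 1 library, and the named rows closest in Pearson r. Rows named for other reasons were chosen after their values were seen. Deviations of same-numbered libraries correlated between before DSS and day 12 (r of deviations 0.317, 0.510, 0.178 and 0.405 for numbers 1 to 4). The library number as a block is reported as an alternative, and these correlations do not show whether it applies. Libraries of different numbers were not set against each other in this way. Every pair within a group differed beyond sampling noise (lowest chi-square over its degrees of freedom 3.85).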

Additional observations from a re-analysis of the deposited data

Results flagged for a closer look

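A library stood far from the other 3 of its group, by Dixon's ratio at 95%, for 11 values of the numbered rows described, all in groups of 4. Chance alone flags about 1 in 20 groups of normally distributed values. That rate does not hold where all but 1 library are at 0, since the ratio is then 1.0 whatever that library's count. Of the 11 values, the first was novel_285 in before-DSS library 2, at 831 CPM, where the others lay between 362 and 395 CPM with nearly the same count. Then came novel_214 in recovery library 1 at 2008 CPM and novel_280 in before-DSS library 3 at 146 CPM, with 0 in the other libraries of the group. Also with 0 in the other libraries were novel_205 in recovery library 1 at 49 CPM and novel_311 in before-DSS library 4 at 71.8 CPM, 2 counts each. novel_325 stood at 901 CPM in recovery library 2, where the others lay between 0 and 147 CPM. The other 5 are rows counted in 1 library only, so the gap is part of their definition: novel_401 and novel_144 in recovery library 4 at 5664 and 287 CPM, novel_234 in recovery library 1 at 49 CPM, novel_334 in before-DSS library 1 at 65.8 CPM and novel_371 in before-DSS library 4 at 71.8 CPM.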

How the results depend on the processing

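The number of numbered rows called depended mostly on the low-count filter. All counts of calls in this section take higher and lower rows together. With no filter it was 7 for day 5 over before DSS, 6 for day 12 over before DSS and 9 for day 12 over day 5, of 72 numbered rows, where 2.44%, 2.76% and 3.41% of all 616 rows were called. With at least 10 CPM in at least 3 libraries it was 3, 1 and 5 of 51 numbered rows, where 1.21%, 2.67% and 2.43% of 412 rows were called. Without a filter novel_401, counted in 1 library, had an edgeR adjusted p of 5.09e-13 on day 12 against before DSS. DESeq2 called 1 for day 5 over before DSS and 2 for day 12 over day 5, where it called 3.70% and 8.89% of 135 rows. The replicate block called novel_249 for day 5 over before DSS (1 row, edgeR adjusted p = 0.0486) and novel_363 for day 12 over before DSS (1 row), and changed no other call of a numbered row. Over all 137 rows it called 16 for day 5 against before DSS (0 without it). It called 15 for day 12 against before DSS (9 without it) and 14 for day 12 against day 5 (5 without it). Deviations of the day 5 libraries correlated with those of same-numbered before-DSS and day 12 libraries at -0.0983 to 0.314. That range overlaps the 0.178 to 0.510 between before DSS and day 12. Whether same-numbered libraries come from the same mouse was not tested. Leaving out each library gave 0 to 1 calls for day 12 against before DSS and 0 to 2 for day 12 against day 5. The log2 fold change of novel_363 on day 12 against day 5 turned to 0.40 with limma-voom and 0.22 with the replicate block, and leaving out each library gave -2.34 (recovery library 1) to 2.39 (day 5 library 1). Scaling by library total put the median of all log2 fold changes at 0.34 for day 5 over before DSS and at -0.31 for day 12 over day 5, and left the calls of the numbered rows as they were. The difference in mean share, in percentage points, was 1.73 for day 5 over before DSS, 0.417 for day 12 over before DSS and -1.31 for day 12 over day 5. It was 0.292, 0.228 and -0.0644 over the tested rows only, 0.269 on day 12 against before DSS without rows counted in 1 library, and 0.418 for day 5 and 0.183 for day 12 over before DSS without rows with over 50% of their counts in 1 library, which was chosen after seeing the data. Leaving out each library kept the sign (0.670 to 2.32, 0.380 to 0.467 and -1.90 to -0.254), as did leaving out before-DSS library 2 and recovery library 4 together, also chosen after seeing the data. Unthinned, the number of rows with a count differed by 5.33 for day 5 over before DSS and by -3.08 for day 12 over day 5, where at equal depth it was 10.5 and -10.6. With at least 2 counts asked of a library, 23 rows rather than 11 fell in 1 library. Depth limits most of these rows, which had few counts.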
